A study of Mus musculus with 7 samples.

Results

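The wild type baseline of the 4 week mouse thymus was described from 3 of the 7 libraries of the series, those labelled wild type thymus replicate 1, replicate 2A and replicate 2B. All 3 came from cell suspensions of whole thymus of 4 week old mice of the strain given as wt_c57BL/6, with no allele or treatment named, and poly(A) RNA was sequenced from each. The other 4 libraries, from thymus carrying the Ikaros ZnF1-/- or Ikaros ZnF4-/- mutation, were not used here. Replicate 1 was read as 76 bp single-end reads on an Illumina GAIIx, and 2A and 2B as 50 bp single-end reads on an Illumina HiSeq. The labels do not say whether 2A and 2B came from separate animals, so a standard deviation over the 3 libraries may hold technical as well as biological spread, and no test between groups exists for a single group.

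The thymus is the organ in which T cells are made. Most of its cells are immature T cells, called thymocytes, and most thymocytes of a young animal carry both CD4 and CD8 at the surface while they rearrange the T cell receptor alpha genes with the RAG recombinase. A supporting network of epithelium, macrophages, dendritic cells, vessels and connective tissue surrounds them. Passing a suspension through a strainer keeps cells that come free easily, so the libraries describe that suspension and not the intact organ.

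Levels are given in RPKM, reads on a gene's exons divided by exon length and library size, which allows genes of different length to be set side by side. The deposited table held 16734 genes, of which 10336 (61.8%) averaged 1 RPKM or more and 9934 reached 1 RPKM in every library. A mean of at least 10 RPKM was reached by 5185 genes, of at least 100 by 227 and of at least 1000 by 4, while 455 genes were listed at 0 in all 3 libraries. Summed RPKM was 177175 in replicate 1, 227459 in 2A and 217389 in 2B. Weighted by gene length, the RPKM values correspond to 54.8, 67.2 and 65.0% of mapped reads lying in listed genes. This holds only if RPKM was scaled to all mapped reads. Total read numbers are unknown, since the table holds no counts, although low values in replicate 1 fell on steps that fit about 20140000 mapped reads (65.0% of the values on a step within 0.006 RPKM, against 24.9% at random depths). The same search found no depth for 2A and 2B.

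The 3 libraries stood apart in sex-linked genes before any other gene was considered. Xist, the long noncoding RNA of the inactive X chromosome, was at 109 RPKM in replicate 1 and at 0.01 RPKM in both 2A and 2B. Eif2s3y, a Y-linked gene, was listed at 0 in replicate 1 and stood at 21.5 RPKM in 2A and 21.0 RPKM in 2B. The Y-linked genes Ddx3y, Kdm5d and Uty were at 0.01 RPKM each in replicate 1, and Ddx3y was at 17.4 and 14.7 RPKM in 2A and 2B. Replicate 1 thus had Xist without Y-linked transcripts, and 2A and 2B had the reverse. Sex, animal, sequencing instrument and read length all change together between replicate 1 and the other libraries and cannot be told apart.

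The genes of highest mean RPKM were those of T cell identity and of the actin cytoskeleton. Tcf7, which encodes the Wnt-responsive T lineage factor TCF-1 (chromosome 11, 52065873 to 52096681, minus strand, mm9), stood first at 1348 RPKM in replicate 1, 1911 in 2A and 2138 in 2B (mean 1799 ± 407, SD, n = 3). Actb, the gene of cytoplasmic beta-actin (chromosome 5, 143664794 to 143668433, minus strand), followed at 1692, 1338 and 1408 RPKM. Thy1, the glycolipid-anchored surface protein long used to mark mouse T cells (chromosome 9, 43851467 to 43856662, plus strand), reached 905, 1344 and 1419 RPKM. The order of these 3 genes was not the same in every library, since Actb was above Tcf7 and Thy1 in replicate 1 and below Tcf7 in 2A and 2B. Pfn1, the actin monomer binder profilin, was the only other gene with a mean above 1000 RPKM, at 736, 1184 and 1300.1 RPKM.

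Rag1, the catalytic subunit of the V(D)J recombinase (chromosome 2, 101478439 to 101489658, minus strand), was the fifth, with 875 RPKM in replicate 1, 965 in 2A and 926 in 2B (mean 922 ± 45.2). Below it came Cd8b1 (813 ± 202 RPKM), the thymosin gene Tmsb4x (749.8 ± 94.5), the ribosome-associated scaffold gene Gnb2l1 (678 ± 213), the GTPase regulator gene Arhgdib (642 ± 130.3) and B2m (629.8 ± 101), the light chain of MHC class I. The rest of the first 25 included Tubb5, Cd8a, Dntt, Lck, Cd52, Coro1a, Rpl8, Lat, Cd3g, Cd4, Ly6e, Cd3e, Satb1 and Eef2, with means from 611 down to 392 RPKM. Every gene of the 25 had a range over the 3 libraries that overlapped the range of the gene after it, so the exact order is not resolved. Of the 25, 12 belonged to the lists of CD3 and pre-T cell receptor chains, coreceptors and surface proteins, receptor signalling, V(D)J core or T lineage factors, as did 22 of the first 100. The first 25 of each library shared 19 genes across all 3.

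**Figure D1:**
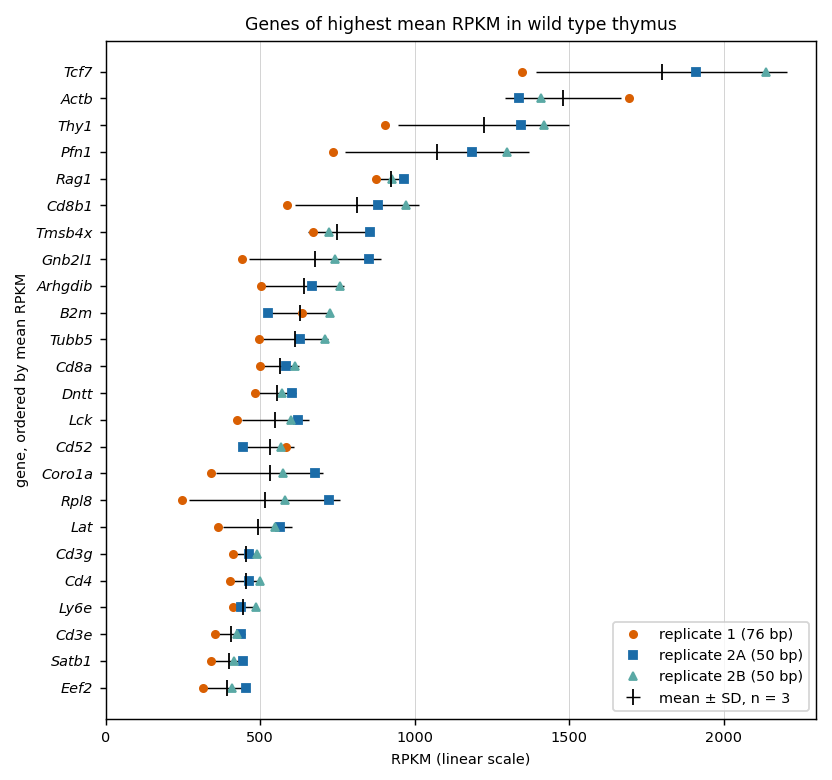
RPKM on a linear axis for 24 of the 25 genes of highest mean RPKM, with 1 symbol per library and the mean ± SD of 3 libraries as a bar. Tcf7, Actb and Thy1 lead, and replicate 1 is the lowest library for most of the genes shown.

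No single transcript took a large part of the RNA. The first 10 genes held 4.74, 4.63 and 5.11% of summed RPKM in replicate 1, 2A and 2B (mean 4.82 ± 0.255%), the first 25 held 8.36 ± 0.367% and the first 100 held 16.2 ± 0.735%. The first 1000 genes held 46.6 ± 1.70%. Ordered by mean, 1168 genes were needed to reach 50% of the summed RPKM and 5644 to reach 90%. Abundance was thus spread over many genes, with a small T cell and cytoskeletal group at the top.

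The chains of the CD3 complex, which carry the signal of the T cell receptor into the cell, were among the most abundant membrane protein transcripts. Cd3g was at 412 RPKM in replicate 1, 463 in 2A and 491 in 2B, and Cd3e was at 355, 439 and 426 RPKM. Their ranges overlapped, and the ratio of Cd3g to Cd3e was 1.12 as a geometric mean. Cd247, the zeta chain that carries most of the signalling motifs, lay lower at 232, 329.7 and 332 RPKM, with no overlap with Cd3e. Cd3d was lower again at 151, 174 and 147 RPKM, which is 0.388 of Cd3e (log2 ratio -1.37 ± 0.15). Ptcra, the invariant alpha chain of the pre-T cell receptor made before the alpha locus is rearranged, was at 20.1, 34.4 and 26.5 RPKM, or 0.0651 of Cd3e. The 5 members spanned 26.98 to 455 RPKM in mean level, and the order from Cd3e to Cd247, Cd3d and Ptcra held without overlap of ranges.

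The Cd3e, Cd3d and Cd3g genes lie side by side on chromosome 9, and their start regions are shown because Cd3d differed in level from its neighbours Cd3e and Cd3g while sharing their locus. The sequences run 250 bases before to 30 bases after the start given by RefSeq for build GRCm38.p6, and capitals mark the E-box letters CAGGTG or CAGCTG on either strand (CACCTG is CAGGTG read on the other strand). The windows are chr9:45009582-45009861 on the minus strand for Cd3e, chr9:44981536-44981815 on the plus strand for Cd3d and chr9:44980402-44980681 on the minus strand for Cd3g.
Cd3e: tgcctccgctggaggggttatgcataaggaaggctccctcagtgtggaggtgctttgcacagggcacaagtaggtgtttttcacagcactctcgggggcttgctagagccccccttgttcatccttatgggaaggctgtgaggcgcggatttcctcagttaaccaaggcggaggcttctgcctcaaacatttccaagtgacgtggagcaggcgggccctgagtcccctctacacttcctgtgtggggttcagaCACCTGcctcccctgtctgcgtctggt
Cd3d: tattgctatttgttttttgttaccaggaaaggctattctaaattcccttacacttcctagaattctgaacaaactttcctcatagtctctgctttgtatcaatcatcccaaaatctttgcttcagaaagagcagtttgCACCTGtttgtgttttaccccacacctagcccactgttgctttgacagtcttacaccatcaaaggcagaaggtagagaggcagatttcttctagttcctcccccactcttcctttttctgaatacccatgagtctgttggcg
Cd3g: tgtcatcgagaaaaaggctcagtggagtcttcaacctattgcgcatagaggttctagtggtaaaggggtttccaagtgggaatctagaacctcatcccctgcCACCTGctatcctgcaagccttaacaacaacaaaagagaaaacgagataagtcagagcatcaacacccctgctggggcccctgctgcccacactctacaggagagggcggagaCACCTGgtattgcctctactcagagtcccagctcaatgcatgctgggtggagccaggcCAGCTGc
Cd3e held 1 CAGGTG, Cd3d held 1, and Cd3g held 2 together with 1 CAGCTG. None of the 3 windows held TATAAA or the ETS-type letters CCGGAAG. Of these E-box words, CAGGTG was found in 18.9% of the 27025 promoter windows of that length (first listed start per gene), in 15.5% of the 7280 windows of genes averaging 1 RPKM or more and in 18 of 54 windows (33.3%) of the T cell lists. The other word, CAGCTG, was found in 14.7%, 12.5% and 18.5% (10 of 54) of the same sets. By comparison, CCGGAAG was found in 8.70% of all windows, in 19.9% of those of genes averaging 1 RPKM or more, in 24 of 62 windows of ribosomal protein genes (38.7%) and in 0 of 54 of the T cell lists. These are matches of letters and not measured binding sites. Other spellings of ETS-type sites were not counted, so the 0 of 54 covers CCGGAAG alone.

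Among coreceptors and other surface proteins, all 14 listed genes had a mean above 10 RPKM, with a median of 162 RPKM against 3.28 RPKM over all genes of the table. Cd8b1 and Cd8a encode the chains of the CD8 coreceptor. Cd8b1 was at 586, 879.7 and 972 RPKM and Cd8a at 499, 584 and 613 RPKM, so that Cd8a stood at 0.851, 0.663 and 0.630 of Cd8b1 in replicate 1, 2A and 2B. Cd4, the coreceptor for MHC class II, was at 401, 462 and 499.6 RPKM. The ratio of Cd4 to Cd8a was nearly constant at 0.804, 0.792 and 0.815, the smallest log2 spread of the 23 ratios computed (SD 0.02). The lymphoid surface gene Ly6d was at 248, 474 and 428 RPKM and Cd7, the lowest member, at 13.8, 17.5 and 17.3 RPKM. Cd24a, a protein of immature thymocytes named after its values were seen, was at 66.8 RPKM in replicate 1 against 31.8 and 39.2 RPKM in 2A and 2B, and 78.7% of its 50-base and 93.2% of its 76-base windows occur once in the genome.

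Receptor signalling genes were led by the proximal kinase and the membrane adaptor. Lck, the kinase held by CD4 and CD8, was at 424, 622 and 599.5 RPKM, and Lat, the adaptor phosphorylated by ZAP-70, was at 364, 564 and 548 RPKM. Themis, a thymocyte selection protein, followed at 171, 119 and 138 RPKM, then the Ras exchange factor gene Rasgrp1 at 144, 135 and 143 RPKM. Lck exceeded Fyn, the other Src-family kinase of T cells, 12.7-fold, 13.7-fold and 13.5-fold in the 3 libraries. It exceeded Zap70 10.4-fold in replicate 1 and 6.87-fold and 7.14-fold in 2A and 2B. Zap70 itself was at 40.8, 90.5 and 84.0 RPKM, so the Lck to Zap70 ratio carried the difference between libraries that Zap70 showed. The lowest of the 20 members was the ubiquitin ligase gene Cblb at 9.41 ± 0.880 RPKM.

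**Figure D2:**
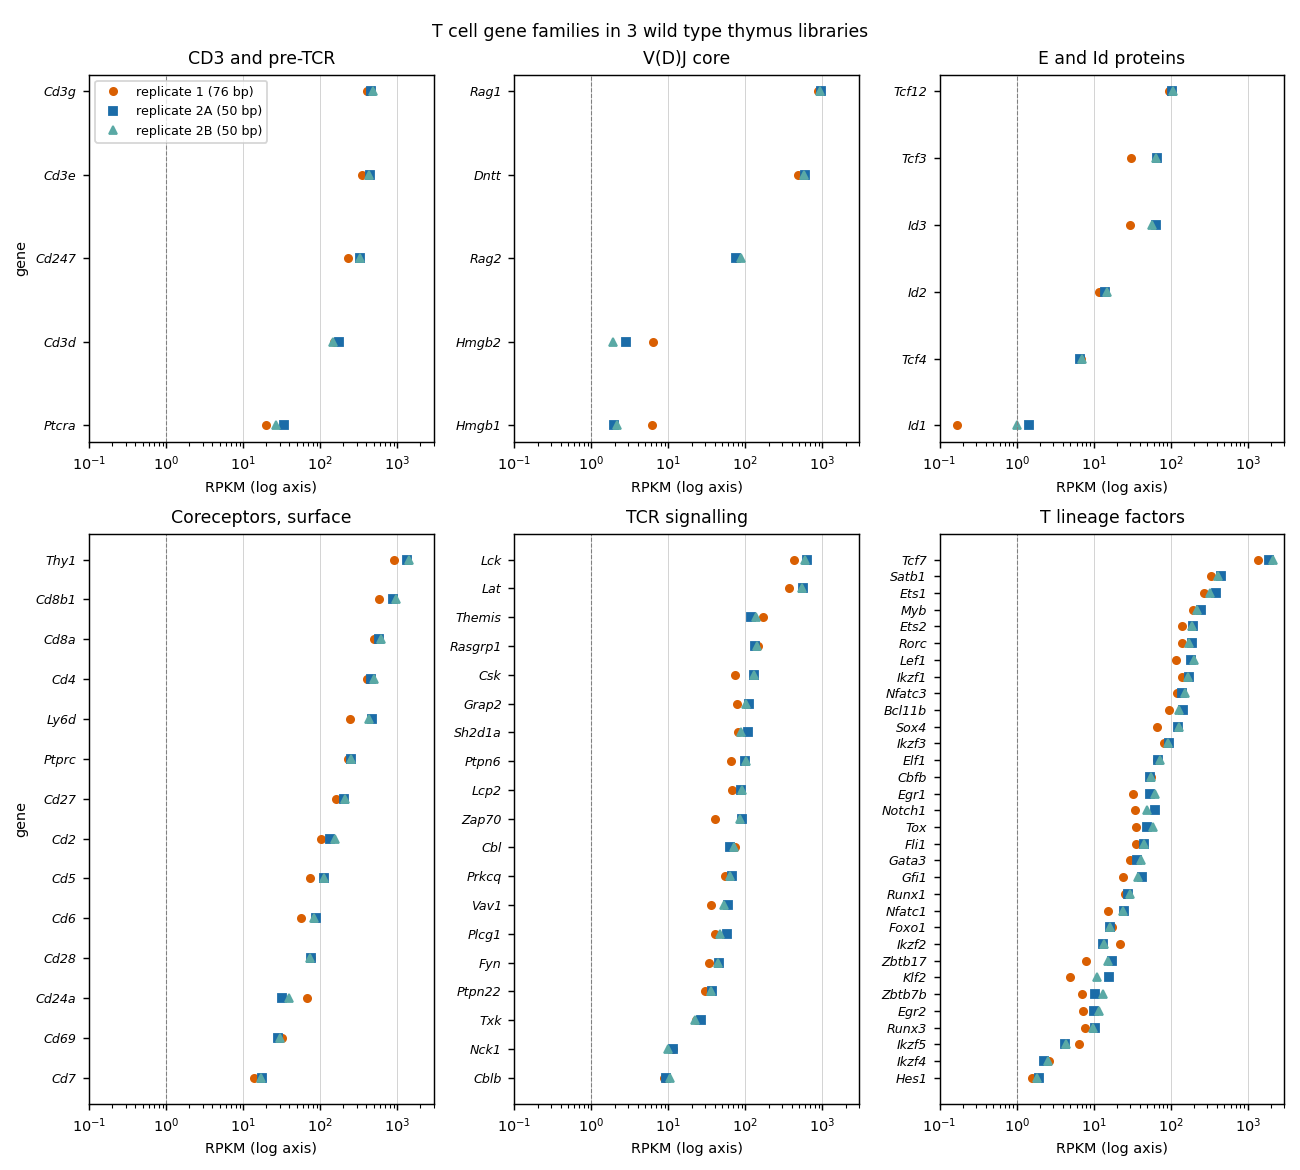
RPKM on a log axis for members of 6 T cell gene families, with 1 symbol per library and a dashed line at 1 RPKM. Tcf7 stands apart at the top of the T lineage factors, and replicate 1 is the lowest library for many genes.

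The V(D)J core genes were the lymphoid genes Rag1, Rag2 and Dntt and a low pair of general chromatin proteins, Hmgb1 and Hmgb2. Rag2, the partner of Rag1 in the recombinase (the genes lie next to each other), was at 77.5, 74.95 and 87.9 RPKM, far below Rag1. The Rag1 to Rag2 ratio was 11.3, 12.9 and 10.53 in the 3 libraries (geometric mean 11.5, log2 SD 0.15), and 99.9% of the 50-base windows of Rag1 and 99.6% of those of Rag2 occur only once in the genome. Dntt, the terminal transferase that adds bases at the joints, was at 484, 603 and 572 RPKM, or 0.597 of Rag1. Hmgb1 and Hmgb2, DNA-bending proteins that assist the recombinase in vitro, were at 3.42 ± 2.40 and 3.72 ± 2.35 RPKM. The unique share of windows was only 27.4% for Hmgb1 and 65.8% for Hmgb2, so their levels are uncertain, and their ratio fell on different sides of 1 in different libraries.

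Among the 16 genes of end joining and damage signalling, Xrcc6, the Ku70 subunit that binds broken DNA ends, was highest at 104, 162 and 118 RPKM. Its obligate partner Xrcc5, the Ku80 subunit, was at 9.91, 8.23 and 8.09 RPKM, a ratio of 0.0693 to Xrcc6. Both genes were 98.4% unique by the 50-base measure, and no exon of Xrcc6 or Xrcc5 overlapped another annotated gene. The histone gene H2afx (93.5 ± 29.5 RPKM), the ligase gene Lig4 (38.9 ± 1.79) and Parp1 (34.2 ± 8.20) came next to Xrcc6, followed by the Artemis nuclease gene Dclre1c (15.1 ± 1.27). Poll, a gap-filling polymerase, was the lowest at 1.01 ± 0.331 RPKM. All 16 averaged 1 RPKM or more and 7 reached 10 RPKM.

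Transcription factors of the T lineage were present as a whole list, with all 32 members averaging 1 RPKM or more, 27 at 10 or more and 11 at 100 or more. After Tcf7 came the chromatin organiser Satb1 (339, 444 and 415 RPKM), Ets1 (267, 383 and 329), Myb (197, 250.2 and 218) and Ets2 (141, 195 and 190.2). Tcf7 did not overlap any other member. Its relative Lef1, which binds the same DNA element, was at 118, 181 and 203 RPKM, and the Tcf7 to Lef1 ratio was 11.4, 10.53 and 10.52. The lowest member was the Notch target Hes1 at 1.57, 1.97 and 1.81 RPKM.

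The Ikaros family could be set side by side within the same libraries. Ikzf1, which encodes Ikaros, was at 142, 175 and 169.5 RPKM and Ikzf3, which encodes Aiolos, at 82.4, 95.5 and 92.1 RPKM. Ikzf1 exceeded Ikzf3 1.72-fold, 1.84-fold and 1.84-fold. Runx1 was at 25.7, 28.1 and 29.7 RPKM and exceeded Runx3, a factor of the CD8 lineage, 3.32-fold, 2.67-fold and 3.01-fold.

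E proteins drive early T cell genes, and Id proteins hold them away from DNA. Tcf12, which encodes the E protein HEB, was at 96.0, 104 and 107 RPKM, and Tcf3, which encodes E2A, at 30.4, 65.7 and 63.8 RPKM. The Tcf12 to Tcf3 ratio was 3.15 in replicate 1 but 1.58 and 1.67 in 2A and 2B. Tcf4 was the lowest E protein at 6.87 ± 0.146 RPKM. Id3 was the highest inhibitor at 29.8, 63.9 and 57.4 RPKM, above Id2 at 11.8, 13.9 and 14.9 RPKM in every library, by 2.53-fold, 4.60-fold and 3.85-fold. Id1 was at 0.17, 1.45 and 1.02 RPKM. Tcf3 has a GC content of 61.0% and Id3 of 58.8%, against 45.1% for Tcf12 and 42.4% for Id2, and the part of base composition in these ratios was not tested.

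The chemokine receptor genes Ccr9 and Cxcr4, of cortical thymocytes, were higher than Ccr7, of mature cells. Ccr9, the receptor for the thymic chemokine CCL25, was at 328, 287 and 333 RPKM and Cxcr4 at 179, 237 and 244 RPKM. Ccr7, which guides mature thymocytes to the medulla, was at 21.9, 33.2 and 33.4 RPKM, and Ccr9 exceeded it 14.95-fold, 8.64-fold and 9.95-fold. Ccr4 (22.2 ± 2.04) and Ccr8 (8.10 ± 1.06) followed, and Cxcr5 was lowest of the 10 at 0.583 ± 0.167 RPKM. Only Ccr9 and Cxcr4 of this list passed 100 RPKM.

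Genes of mature and emigrating thymocytes were present at moderate levels. Cd52, a glycolipid-anchored lymphocyte protein, led that list at 583, 443 and 567 RPKM, and was its only member above 100 RPKM. Ms4a4b was at 28.6 ± 2.68 RPKM and Ms4a6b at 22.1 ± 2.48 RPKM. The cytokine receptors were led by Il2rg, the common gamma chain, at 246, 248 and 301 RPKM (43.6% of its exonic bases overlap another annotated gene, so it is uncertain), and by Ifngr1 at 151 ± 32.2 RPKM, with Il21r (64.4 ± 10.2), Il6st (42.3 ± 1.97) and Il4ra (39.8 ± 9.04) next and Il18r1 lowest at 1.12 ± 0.2499 RPKM. Progenitor genes were low, with 5 of 14 averaging 1 RPKM or more and a median of 0.468 RPKM. Il2ra (16.1 ± 1.06), Il7r (15.4 ± 0.577), Cd44 (4.97 ± 0.864), Kit (2.14 ± 0.153) and Sfpi1 (1.98 ± 0.488) were the 5, and the stem cell factor Meis1 was lowest at 0.0200 RPKM.

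The BCL-2 family was led by inhibitors of cell death. Mcl1 was at 83.0, 82.0 and 78.0 RPKM and Bcl2l1, which encodes BCL-XL, at 57.2, 91.4 and 90.8 RPKM. Bcl2 was at 9.02, 7.77 and 6.78 RPKM, and Bcl2l1 exceeded it 6.34-fold in replicate 1, 11.8-fold in 2A and 13.4-fold in 2B. Of the death-promoting members, Bak1 (36.1 ± 6.95), Bmf (29.6 ± 13.1) and Bax (22.7 ± 8.08) were highest, and Bax stood at 0.267 of Mcl1. Bcl2a1a was lowest and was listed at 0 in 2A and 2B.

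Markers of minor cell types were far below those of thymocytes. The 133 listed markers of 13 cell types summed to 491, 601 and 498 RPKM, with 49 averaging 1 RPKM or more and none at 100. The beta-globin entry Beta-s, which averaged 111 RPKM, was not among them and is not in these sums. In such bulk samples, fewer cells of a type and less RNA per cell cannot be told apart. Regulatory T cell genes were the only list with every member at 1 RPKM or more, 8 of 8, led by Tnfrsf18 (12.2, 22.1 and 18.4 RPKM), Ikzf2 (21.8, 13.1 and 13.8) and Il2ra (17.2, 16.04 and 15.1). Foxp3, the defining factor of these cells, was at 3.62, 4.11 and 4.49 RPKM, and Ctla4 was lowest at 3.75 ± 1.36 RPKM. Several members of that list are shared with other thymocytes, as Il2ra also marks progenitors.

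Within these lists, the granulocyte markers S100a8 and S100a9 had the highest means. The neutrophil calcium-binding proteins S100a8 and S100a9 were at 76.3, 56.2 and 62.8 RPKM and at 42.4, 74.2 and 51.1 RPKM, and the granule gene Ngp was at 20.3, 22.6 and 24.7 RPKM, followed by Camp (5.98 ± 1.40) and Ltf (3.70 ± 0.685). The mast cell protease gene Mcpt4 was lowest at 0.0200 RPKM. Macrophage genes were led by the lysozyme gene Lyz2 at 39.9, 39.2 and 26.5 RPKM, then the complement genes C1qb (10.8 ± 1.71), C1qc (8.02 ± 2.11) and C1qa (5.23 ± 2.06) with Cd68 (8.03 ± 1.72), whereas the clearance receptor gene Mertk was at 0.133 ± 0.0321 RPKM. Of the natural killer and innate-like list, Gzma stood at 31.6, 31.1 and 22.3 RPKM and Nkg7 at 15.1, 16.1 and 12.3 RPKM, while Ncr1, the receptor that defines natural killer cells, was at 0.170 ± 0.0624 RPKM. Dendritic cell markers reached 1 RPKM in 2 of 12 cases, Itgae (5.74 ± 0.757), which T cells also express, and Ccl22 (5.14 ± 0.891).

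Some lists held 1 gene far above its fellows. Cd79b, of the B cell receptor, was at 15.03, 19.4 and 16.9 RPKM, but Cd79a was at 1.59 ± 0.172 and Ms4a1 at 1.09 ± 0.195 RPKM, and Igll1 was lowest at 0.133 RPKM. Pecam1 was at 29.4, 41.6 and 37.0 RPKM, whereas Plvap was at 0.300 ± 0.0346 and Cdh5, the endothelial cadherin, at 0.107 ± 0.0611 RPKM. Fn1 was at 3.17, 18.1 and 9.51 RPKM, whereas Pdgfrb was at 1.29 ± 0.340 RPKM, Col1a1 at 0.0900 ± 0.0436 RPKM, and Pdgfra, a defining fibroblast receptor gene, was listed at 0 in all 3 libraries. The leading gene of each of these lists thus stood apart from its other members.

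The thymic epithelium, the stromal cell that selects thymocytes, was represented at very low levels by its defining genes. Foxn1, its master regulator, was at 0.02, 0.01 and 0.01 RPKM, and Psmb11, the cortical thymoproteasome subunit, at 0.17, 0.04 and 0.02 RPKM. Aire, the medullary regulator of self-antigen display, was at 0.18, 0.21 and 0.24 RPKM. Only 4 of the 18 epithelial markers reached 1 RPKM, Cldn4 (6.73, 12.9 and 8.94 RPKM), Ly75 (4.13 ± 0.615), Epcam (2.44 ± 0.716) and Ccl25 (2.33 ± 0.557), and Il7 was lowest at 0.00333 RPKM. The list summed to 18.6, 24.5 and 18.5 RPKM.

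Globin genes differed between the libraries. The adult beta-globin genes Hbb-b1 (7.26, 23.7 and 15.2 RPKM) and Hbb-b2 (7.35, 23.6 and 15.2) had almost the same values in each library. The alpha-globin genes Hba-a1 (3.09, 3.15 and 1.87 RPKM) and Hba-a2 (3.07, 3.13 and 1.86) did so too, but were not lowest in replicate 1, and both pairs share sequence and are uncertain. A further beta-globin entry, Beta-s, not in the marker lists and named after its values were seen, was at 44.2, 173 and 117 RPKM (mean 111). Alas2, the heme synthesis enzyme of red cell precursors, followed the order of the beta-globins, at 1.78, 4.93 and 3.35 RPKM. The platelet factor gene Pf4 was at 0.25, 1.82 and 1.02 RPKM. All 6 adipocyte markers were below 1 RPKM, with Fabp4 highest at 0.717 ± 0.201, and the 3 listed parathyroid markers were at 0.0333 RPKM or less.

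**Figure D3:**
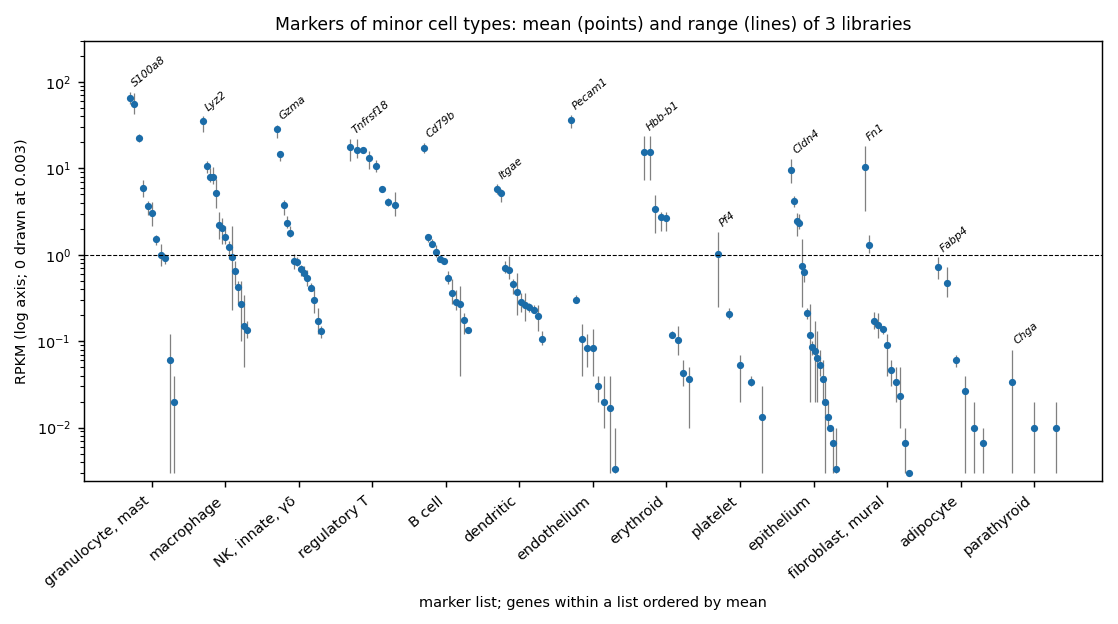
Mean RPKM (points) and range over 3 libraries (lines) for the markers of 13 minor cell types on a log axis, with the leading gene of each list named, a dashed line at 1 RPKM and values of 0 drawn at 0.003. Granulocyte, macrophage and regulatory T lists hold many genes above the line, while endothelium, fibroblast and platelet lists hold 1 or 2.

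Among 14 functional classes taken from gene symbols, the actin and tubulin cytoskeleton held the largest share of summed RPKM, at 3.01, 2.74 and 2.92% (mean 2.89 ± 0.134%). Its 50 members were very unequal, since Actb, Pfn1 and Tmsb4x were near or above 750 RPKM while the class median was 15.5 RPKM. Tmsb4x exceeded its relative Tmsb10 115-fold, but Tmsb10 was only 40.8% unique. Oxidative phosphorylation subunits held 1.92 ± 0.144%, with Atp5b (295 ± 52.8 RPKM), Atp5a1 (244 ± 60.2) and Cox6b1 (174 ± 43.0) highest and a class median of 32.6 RPKM. RNA splicing held 1.44 ± 0.0377%, led by Hnrnpl, Hnrnpu and Srsf2. Translation factors held 1.44 ± 0.0240%, led by Eef2, Eif4g2 and Eif3k. Picked by symbol, that translation class also held regulators such as Eif4ebp2 and Eef2k and the Argonaute genes Eif2c1 to Eif2c4.

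Replication and mitosis genes held 0.968 ± 0.0518%, with all 56 members averaging 1 RPKM or more and a median of 23.4 RPKM. Ccnd3, the D-type cyclin of thymocytes, was at 176, 209.7 and 215 RPKM, the topoisomerase gene Top2a at 131, 128 and 123.2 RPKM and the proliferation gene Mki67 at 149.6, 104 and 106 RPKM. Mcm2 exceeded Mcm7, another subunit of the replicative helicase, 1.61-fold, 2.96-fold and 2.76-fold, with Mcm7 72.3% unique. Heat shock proteins and chaperonins held 0.915 ± 0.0213% (Hsp90ab1, Cct2 and Cct5 highest) and proteasome subunits held 0.822 ± 0.0593%. The proteasome class, picked by symbol, also held Psmc3ip, which is not a subunit. The highest proteasome gene was Psmb8, an interferon-inducible immunoproteasome subunit, at 77.6, 172 and 135 RPKM, ahead of Psmb2 and Psmd8.

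MHC class I and antigen processing held 0.607 ± 0.0666%, of which B2m made up most, followed by Calr (98.0 ± 18.9 RPKM) and H2-K1 (86.9 ± 10.4). MHC class II held 0.0736 ± 0.00895%, led by Cd74 at 36.9, 50.6 and 60.0 RPKM, H2-Aa at 27.8, 33.7 and 39.2 RPKM and H2-Ab1 at 17.4, 29.8 and 33.5 RPKM. Glycolysis held 0.157 ± 0.00931%, with Ldha (79.9 ± 4.00 RPKM), Ldhb (52.2 ± 10.9) and Aldoa (40.05 ± 7.20) highest. The nuclear HMG proteins held 0.0265 ± 0.00928%, with Hmgn1, Hmgn5 and Hmgn2 highest. By the 50-base measure, 10 of the 20 glycolysis genes and 8 of the 9 HMG genes were under 90% unique, so both shares are uncertain. Variant histones held 0.197 ± 0.0142% (H2afy, H2afx and H3f3b), against 0.104 ± 0.0706% for the replication-dependent histones, whose messengers mostly end in a stem-loop in place of a poly(A) tail. In replicate 1 the shares were 0.183% for the variant and 0.186% for the replication-dependent histones, and in 2A and 2B the latter held 0.0630 and 0.0634%.

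**Figure D4:**
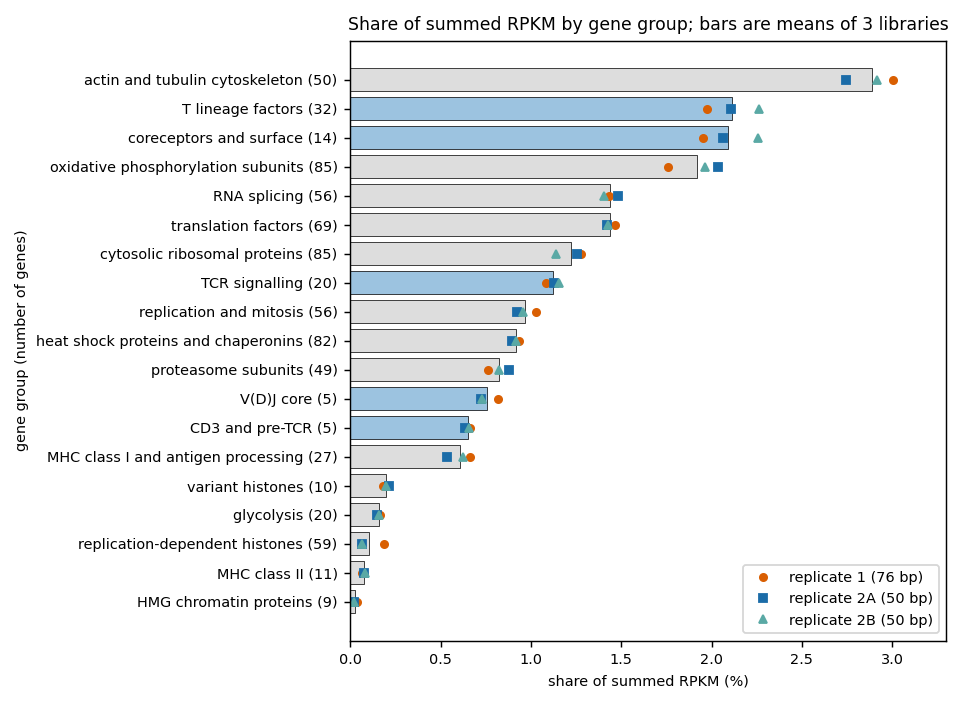
Share of summed RPKM in percent for 14 functional classes (grey) and 5 T cell lists (blue), with bars for the mean of 3 libraries, symbols for each library and the number of genes in brackets. The 50 cytoskeletal genes hold 2.89%, while 32 T lineage factors hold 2.11% and 14 coreceptor and surface genes 2.09%.

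The T cell lists held shares within the range of these general classes. The 32 T lineage factors held 2.11 ± 0.144%, the 14 coreceptor and surface genes 2.09 ± 0.155%, the 20 signalling genes 1.12 ± 0.0344%, the 5 V(D)J core genes 0.758 ± 0.0520% and the 5 CD3 and pre-T cell receptor genes 0.649 ± 0.0141%. Tcf7 alone gave 1799 of the 4403 RPKM summed over the T lineage factors. The lists were picked gene by gene with earlier results known and the classes by symbol, so shares per gene cannot be compared. The cytosolic ribosomal proteins, 85 genes that are usually among the most abundant transcripts of any cell, held 1.22 ± 0.0738% with a median of 4.10 RPKM. That low median went with the share of each gene that is unique in the genome, which is described next.

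Many ribosomal protein genes had few windows that are unique in the genome, and those with the fewest were low in the table. For each gene, the share of its 50-base windows found by exact match at a single place in build NCBIM37 (mm9) was computed. The median share was 99.0% over the 16364 genes with a value but 40.1% over the ribosomal protein genes. Of the 84 ribosomal protein genes with a value, the 12 with a share under 10% had a median of 2.29 RPKM and none reached 10 RPKM. That level was reached by 6 of the 42 with a share from 10 to 50%, by 11 of the 23 from 50 to 90% and by 4 of the 7 from 90%. Rpl8, 90.8% unique, was at 245, 721 and 579 RPKM. Gapdh, a glycolytic enzyme gene often used as an abundant reference, was at 0.92, 0.87 and 0.65 RPKM and 6.05% unique, and the actin gene Actg1 was at 1.23, 0.49 and 0.42 RPKM and 6.41% unique (both named after their values were seen). The relation was loose. Rps20 was 61.8% unique at a mean of 190.2 RPKM. Ptma, named after its values were seen, was only 7.61% unique but stood at 109, 185 and 207 RPKM. How reads with several matches were handled is not given in the sources used here.

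Short stretches show how 50 bases can match more than 1 place exactly where 76 bases do not. The windows below are 76 bases long in coding exons of Rpl32, Cfl1 and Eef1a1, printed on the plus strand of NCBIM37 at the gene with another genomic copy under each, because their first 50 bases occur at more than 1 place while all 76 occur only once. The base in capitals is the only difference between each pair. Matching was exact, so a 76-base read allowed 1 mismatch could still match both copies.
Rpl32, chr6:115755600-115755675: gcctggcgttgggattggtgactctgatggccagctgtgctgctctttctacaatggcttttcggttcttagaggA
other copy, chr10:19928599-19928674 within Mtap7, minus strand: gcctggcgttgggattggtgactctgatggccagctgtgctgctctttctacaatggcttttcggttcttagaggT
Cfl1, chr19:5492523-5492598: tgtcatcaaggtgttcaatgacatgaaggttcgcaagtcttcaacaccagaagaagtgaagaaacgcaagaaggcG
other copy, chr8:43332294-43332369 in Gm6180: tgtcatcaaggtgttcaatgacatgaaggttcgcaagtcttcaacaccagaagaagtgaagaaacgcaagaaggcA
Eef1a1, chr9:78326586-78326661: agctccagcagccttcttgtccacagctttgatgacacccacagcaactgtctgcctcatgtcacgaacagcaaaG
other copy, chr16:51362608-51362683 in the pseudogene Gm6767: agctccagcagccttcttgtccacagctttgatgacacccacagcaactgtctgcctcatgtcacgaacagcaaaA
The first 50 bases occur at 2 places for Rpl32 and Cfl1 and at 4 for Eef1a1. Rpl32 was at 124 RPKM in replicate 1 and at 13.0 and 11.6 RPKM in 2A and 2B, and 51.7% of its 50-base windows but 82.8% of its 76-base windows were unique. Eef1a1, the elongation factor that delivers aminoacyl-tRNA, was at 243, 60.9 and 61.6 RPKM, with 26.8% unique at 50 bases and 46.8% at 76. Cfl1, the actin-severing protein cofilin, was at 262, 108 and 178 RPKM, so that it also differed between 2A and 2B, which have the same read length. The printed genes were chosen with their values known, and each was highest in replicate 1. Genes that gain unique share also went the other way. Rps21, named after its values were seen, was at 4.45, 20.96 and 15.8 RPKM, with 53.3% unique at 50 bases and 78.1% at 76. Read length, instrument, sex and animal cannot be told apart in these differences.

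Across the 10336 genes averaging 1 RPKM or more, the logarithm of RPKM correlated at Pearson r = 0.942 between replicate 1 and 2A, 0.951 between replicate 1 and 2B and 0.993 between 2A and 2B. These correlations are over genes, which are not independent replicates, and describe libraries that share most of their abundance order. The median gene had a standard deviation over the libraries of 16.2% of its mean. Differences were taken on log2(RPKM + 0.5), with 1 library against the mean of 2 or against 1, so they have no replicate check. Replicate 1 lay past 2-fold of the mean of 2A and 2B in 448 genes (4.33%), with 180 higher (1.74%) and 268 lower (2.59%), while 2A and 2B lay past 2-fold of each other in 14 genes (0.135%), 10 higher in 2A (0.0967%) and 4 higher in 2B (0.0387%).

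The balance of higher and lower genes in replicate 1 rested on scaling. The median log2 difference over the tested genes was -0.24 as deposited, and 40.2% of the genes past 2-fold were higher. With the libraries brought to a common median, 279 were higher and 118 lower (70.3% higher), and with each library rescaled to the same sum (TPM), 424 were higher and 121 lower (77.8% higher). Replicate 1 was the lowest library in 22 of the 25 most abundant genes and in 59 of 76 genes of the T cell lists as deposited, against 65.7% of all tested genes. After rescaling to the same sum these counts were 12 of 25 and 34 of 76, against 36.9%. Of the 76 T cell genes, 4 lay past 2-fold in replicate 1, with Zap70 and the egress factor Klf2 (4.92, 15.7 and 10.9 RPKM) lower and Hmgb1 and Hmgb2 higher, against 4.33% of all tested genes.

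The difference between replicate 1 and the other libraries moved with the sequence of the gene. Among genes with a unique share from 0 to 10% the median log2 difference was 0.50, from 10 to 50% it was 0.38, from 50 to 90% it was 0.13 and from 90 to 100% it was -0.27. In the 145 genes that gained 15 percentage points or more of unique windows from 50 to 76 bases, the median was 0.52, with 20.7% past 2-fold higher and 2.07% past 2-fold lower. Base composition moved with it as well. Among the 9047 genes at least 90% unique, the median log2 difference fell from 0.18 at a GC content under 42% to -0.04, -0.23, -0.45 and, at 57% or more, -0.66. The correlation with GC content over these genes was rho = -0.71, as a description across genes. In that last bin of 1449 genes, 145 (10.01%) were past 2-fold lower, against 8 of 839 in the first. The same bins gave medians of 0.03, 0.07, 0.09, 0.12 and 0.13 between 2A and 2B, and the part of read length, instrument and library preparation in either pattern was not tested.

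**Figure D5:**
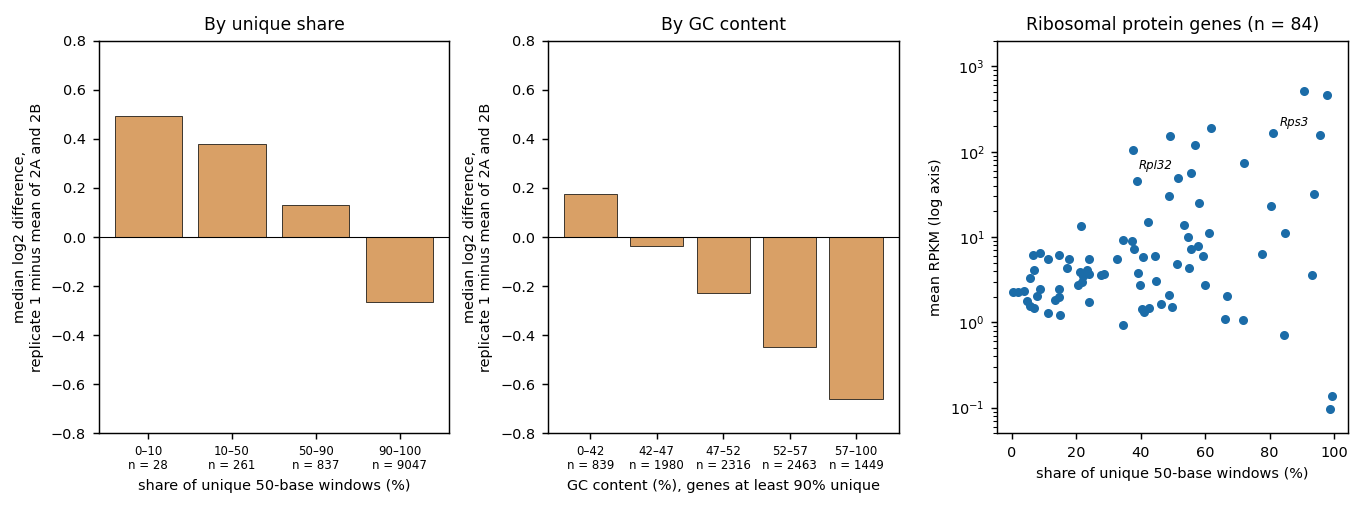
Left and middle, the median log2 difference of replicate 1 from the mean of 2A and 2B by share of unique 50-base windows and, among genes at least 90% unique, by GC content, with the number of genes under each bar. Right, mean RPKM on a log axis against unique share for 84 ribosomal protein genes, where most genes under 20% unique lie below 10 RPKM and Rps3 lies above 100.

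Besides Xist and its antisense partner Tsix (25.2, 0.01 and 0.02 RPKM, a gene that shares exonic sequence with Xist and is uncertain, since the strand of the libraries is not given in the sources used here), the 10 genes most above the other libraries in replicate 1 included Irg1, Spp1 and Cxcl10. Irg1, which makes itaconate in activated macrophages, was at 6.48 RPKM in replicate 1 and at 0.04 and 0.03 RPKM in 2A and 2B. Spp1, which encodes osteopontin, was at 6.17, 0.07 and 0.14 RPKM, and the interferon-induced chemokine gene Cxcl10 at 10.3, 0.55 and 0.49 RPKM. The chemokine genes Ccl3 (4.54, 0.15 and 0.18 RPKM) and Ccl4 (8.32, 0.59 and 0.59) and the macrophage gene Gpnmb (5.62, 0.46 and 0.41), named after their values were seen, had the same pattern. All 6 were at least 99.2% unique with a GC content between 43.3 and 49.6%. The 15 general macrophage markers summed to 82.2 RPKM in replicate 1 and to 87.1 and 61.4 RPKM in 2A and 2B. As a share of summed RPKM they held 0.0464% in replicate 1, 0.0383% in 2A and 0.0282% in 2B. Among these markers, the monocyte receptor gene Cd14, named after its values were seen, was at 2.15, 0.43 and 0.23 RPKM. The part of such cells in these differences was not tested.

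Hist1h2bn, a replication-dependent histone gene, was also among the 10. It was at 18.6, 1.85 and 0.79 RPKM and Hist1h4d at 34.9, 3.87 and 2.20 RPKM, while Hist2h4, the highest of the class, was at 53.8, 44.4 and 52.8 RPKM. Of the 40 histone genes tested, 24 were past 2-fold higher in replicate 1 and none was past 2-fold lower, against 1.74% and 2.59% of all tested genes. The class held 0.186% of summed RPKM in replicate 1 and 0.0630 and 0.0634% in 2A and 2B. Its median unique share was 56.2%. Of the 9 tested members at least 90% unique, 5 were past 2-fold higher, with a median log2 difference of 1.09 against 1.35 over the 40, and the part of unique share in the difference was not tested.

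Short noncoding RNA genes lay on both sides. Of 69 microRNA genes averaging 1 RPKM or more, 11 were past 2-fold higher in replicate 1 and 8 lower (median log2 difference 0.05). Of 83 small nucleolar and Cajal body RNA genes, 22 were higher and 6 lower (median 0.54). Over all tested genes, 1.74% were past 2-fold higher and 2.59% lower (median -0.24), smaller shares on each side than in either group. Some genes of both groups are shorter than a 76-base read of replicate 1, such as Snord82 at 69 bases and Mir142 at 65. Others, such as Snord22, lie wholly within exons of another annotated gene. Their RPKM and the differences between read lengths are therefore uncertain. Rmrp, the RNA of a mitochondrial RNA-processing enzyme, was at 144, 13.4 and 12.3 RPKM, and the small nucleolar RNA Snord15a at 15.7, 0.57 and 0.23 RPKM. The gene models Gm6788 (6.25, 0.07 and 0.10 RPKM) and Gm6402 (7.20, 0.24 and 0.24) completed the 10 highest. Lower in replicate 1, besides the Y-linked genes, were Tpt1 (2.94, 88.9 and 44.8 RPKM) and its near-identical copy Tpt1p (3.13, 97.4 and 48.99), which share reads and are uncertain. Scand1, of 68.4% GC and with 40.5% of its exonic bases in another annotated gene, was at 4.21, 55.9 and 40.4 RPKM, Tsnax was listed at 0 in replicate 1 and stood at 5.08 and 3.93 RPKM, Mir762 was listed at 0 against 6.08 and 3.45 RPKM, and Snord82 was at 0.20, 22.1 and 9.03 RPKM.

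Within the 50 bp libraries few genes differed. Fgfbp3 was at 3.23 RPKM in 2A and 0.44 RPKM in 2B, Snhg9 at 4.07 and 0.93, Saa3 at 2.90 and 0.84, and Snord49a at 22.96 and 9.24. Cpt1a, the mitochondrial fatty acid importer, was at 32.7 RPKM in 2A and 13.3 RPKM in 2B, with 10.3 RPKM in replicate 1. In the other direction, the chaperone gene Hsph1 was at 13.2 RPKM in 2A and 33.4 RPKM in 2B, with 12.9 RPKM in replicate 1, and the short RNA genes Mir1843b, Scarna3a, Mir378b and Mir466i followed, the last below 2-fold (log2 difference -0.91). The heat shock gene Hspa8 moved the same way, at 54.9 and 82.6 RPKM, although it is 12.4% unique (named after its values were seen).

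The table also listed 210 microRNA genes, of which 69 averaged 1 RPKM or more. The libraries hold poly(A) RNA, so a value at a microRNA gene reports longer transcripts over the hairpin and not the mature microRNA. The highest was Mir3064, at 179, 214 and 219 RPKM, whose hairpin lies inside the Ddx5 gene, itself at 80.4, 85.0 and 88.7 RPKM. Mir142, a blood-cell microRNA gene, was at 19.1, 5.66 and 4.28 RPKM, and Mir181a-1, whose product tunes T cell receptor sensitivity, at 2.90, 1.06 and 2.13 RPKM. These were named after their values were seen, and the mature products that such loci can give are shown from RefSeq with the seed, bases 2 to 8, in capitals.
mmu-miR-142a-5p: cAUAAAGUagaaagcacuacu
mmu-miR-142a-3p: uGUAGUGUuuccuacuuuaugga
mmu-miR-181a-5p: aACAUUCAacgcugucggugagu
mmu-miR-3064-5p: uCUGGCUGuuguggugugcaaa
The 4 seeds differ from each other.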

How the data were processed

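Thymus suspensions were strained, RNA was extracted with TRI Reagent and purified on columns with DNase, per the labels' protocols. Reads were aligned with TopHat to mm9 and bedtools was used, per the submitters' processing notes; versions, strand and the treatment of reads with several matches are not given in the sources used here. The authors computed RPKM from exonic reads in SeqMonk with the NCBI annotation, kept genes with a read in any library and removed duplicate transcripts of a gene, per the series design text. The deposited table gives no counts, so depth and counting error are unknown.

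Means and SDs were taken over 3 libraries. Differences used log2(RPKM + 0.5) for genes averaging 1 RPKM or more and a 2-fold limit, which understates the change of low genes, and the computation was tested on simulated data. Each gene's share of 50-base and 76-base windows found once, by exact match, and its GC content came from the NCBIM37 (mm9) genome. There, 16365 symbols (97.8%) matched. Promoters and microRNAs came from RefSeq tables of GRCm38.p6. Alternatives were the pseudocount, the minimum mean, scaling to the same sum (TPM) or a common median, weighting by reads, averaging 2A with 2B, leaving out a library and, added after seeing the data, scaling by unique share. Python 3.11.15, pandas 2.3.3, numpy 2.4.6, numba 0.67.0 and matplotlib 3.10.9 were used.

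Named genes were the 25 of highest mean, every CD3, V(D)J core and E or Id protein gene, the 5 highest and the lowest of each other list, the 23 ratio pairs, the 10 most extreme on each side for replicate 1, the 5 on each side for 2A against 2B, the 3 highest of each class and the sex-linked genes. Outside this rule, Cdh5, Plvap, Ncr1, Foxp3, Foxn1, Psmb11, Aire, Col1a1, Rps3, Rpl32, Cfl1 and Eef1a1, like those marked in the text, were named with their values known. A few genes that the rule selects are not reported here. The members and lists were chosen with earlier results of these data known. Of 305 list entries, 4 (Id4, Ahsp, Emcn and Pth) were not matched to the table.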

Additional observations from a re-analysis of the deposited data

How the results depend on the processing

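Depth is unknown for the 50 bp libraries, and with 1 library on a 76 bp instrument a difference from it has no replicate check. Leaving out 1 library at a time gave 10285 to 10384 genes averaging 1 RPKM or more, 376 to 642 genes past 2-fold between replicate 1 and the others, 494.6 to 549.7 RPKM in summed minor cell markers, a Rag1 to Rag2 log2 ratio of 3.45 to 3.59, a cytoskeletal share of 2.83 to 2.96%, a share of 15.8 to 16.6% in the first 100 genes and 24 to 25 of the first 25 genes retained. Weighted by reads, all 14 class shares moved beyond 1 SD: cytoskeleton to 1.51%, oxidative phosphorylation from 1.92 to 0.652% and ribosomal proteins from 1.22 to 0.355%. With a minimum mean of 5 RPKM, 265 genes lay past 2-fold in replicate 1 and 7 between 2A and 2B. Between 2A and 2B, a pseudocount of 0.1 gave 27 genes, a pseudocount of 1 gave 9 and rescaling to the same sum gave 22. The summed minor cell markers came to 2568 TPM after that rescaling. The Hmgb1 to Hmgb2 log2 ratio, -0.15 over all libraries, ranged from -0.30 to 0.053 when 1 library was left out and changed sign without 2A, and the cause was not tested. Leaving out replicate 1 or 2B moved none of the 50 values recomputed beyond 1 SD. A mean over the libraries cannot move that far when 1 of them is left out. For such values this count therefore could not show dependence on a library. Rescaling to the same sum left 37 of 50 values within 1 SD, and scaling by unique share, added after seeing the data, left there 8 of 13 class shares other than the cytoskeleton. No paired analysis was possible because a single group was described.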
